A study of Mus musculus with 6 samples.

Results

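Ribosome biogenesis factors are the proteins that transcribe around, cut, modify and fold ribosomal RNA and hand it on as finished subunits, without remaining in the ribosome. They were followed here through the last step of oocyte development in the mouse, with MII oocytes set against GV oocytes. The members were all probe sets that the array annotation maps to exactly 1 gene symbol, where that symbol begins with Utp, Nop, Nol, Imp3, Imp4, Rrp, Bop1 or Pes1 or is Fbl, Ncl, Npm1, Dkc1, Gar1, Nhp2, Ebna1bp2, Wdr12, Tsr1, Bms1, Nob1 or Ltv1. This gave 89 of 21646 tested probe sets and 51 of 11429 genes. By known role the genes were 26 factors of the small ribosomal subunit, 13 of the large subunit, 3 proteins of box C/D and 4 of box H/ACA small nucleolar ribonucleoproteins (snoRNPs), 3 nucleolar proteins with several tasks, and Nol4 and Nol4l, which share the name but are not known as biogenesis factors.

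MII oocytes, arrested at metaphase of the second meiotic division, came from oviducts of mice 14 h after 5 IU of human chorionic gonadotropin, which induces ovulation, and showed a first polar body. GV oocytes, fully grown and still holding the germinal vesicle, came from large antral follicles and were kept from maturing with 5 µM milrinone, an inhibitor of the oocyte's phosphodiesterase. Both groups came from mice of 22 to 24 days given 5 IU of equine chorionic gonadotropin; the labels name no strain, and each of the 3 samples per stage pooled 300 oocytes. Cumulus cells were removed with hyaluronidase at 1 mg/ml from the MII oocytes and by pipetting from the GV oocytes. All values below are log2 expression values of probe sets as the authors deposited them. Since 10 ng of total RNA was labelled from every sample, they are not per oocyte. They are relative to the signal of each array after amplification and processing, so a difference is not one per unit of input RNA either.

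The work of these proteins is centred on the nucleolus, where RNA polymerase I makes the common precursor of the rRNAs. On that precursor a large particle, the small subunit processome, assembles around the U3 snoRNP and leads to the 40S subunit, while a separate chain of factors, with the PeBoW complex among them, matures the 60S subunit. Box C/D and box H/ACA snoRNPs direct the methylation and pseudouridylation of rRNA. The growing oocyte is known for intense ribosome production, and its nucleolus becomes compact and inactive in transcription before maturation.

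Across probe sets the correlation was 0.988 to 0.991 between arrays of 1 stage and 0.885 to 0.906 between stages, and on this measure no array stood apart. The hybridization controls averaged 9.86, 9.66 and 9.42 in MII arrays and 9.82, 8.97 and 8.94 in GV arrays, so GV replicate 1 stood apart from the other GV arrays there. The array medians were 5.47 to 5.49 for MII and 6.10 to 6.12 for GV arrays, and the number of arrays limits the precision. Of 13 oocyte markers 1, Figla, lay below the medians of all MII arrays and 0 below those of all GV arrays. In MII 7 (53.8%) were called lower and 1 (7.69%) higher, beside 37.8% and 10.5% of all genes. Over all genes 4562 of 11429 lay below the medians of all MII arrays. Of 12 granulosa and cumulus cell markers 10 did, 5 were called lower in MII (41.7%, near the 37.8% of all genes) and none higher. Their summed unlogged level was 268 to 339 in MII and 486 to 582 in GV samples, against 30923 to 32434 in MII and 39490 to 42740 in GV samples for the oocyte markers. Most granulosa and cumulus markers were thus dim in MII arrays, where little of the signal may be specific, and the MII array medians were lower as well. Fewer such cells, less of their RNA per cell and these limits of the signal cannot be told apart. The part of such cells in the results below was not tested.

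The array carries 3 features for 18S rRNA, the RNA that the small subunit factors process, and all were near the top of the arrays' range of 13.3 at both stages. The feature toward the 5′ end read 12.66, 12.68 and 12.66 in MII and 12.46, 12.12 and 12.70 in GV samples. The stages overlapped there, and at this brightness a difference could be hidden.

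Several of these genes are known targets of Myc, whose binding motif, the E-box, is CACGTG. In RefSeq promoters of GRCm38.p6, windows from 250 bases before to 50 bases after the start site, 41 member genes had 50 windows, and 14 of them (28%) held the E-box. Among all 32851 windows the share was 7.15%. CCGGAAG, the core of an ETS site, was in 34% of members' windows and 8.86% of all, GGGCGG, an Sp site, in 64% and 35.7%, and CCAAT, an NF-Y site, in 30% and 37.4%. The motifs AAGATGGC, of YY1, and TATAAA were in 2% and 10% of members' windows and in 2.75% and 13.6% of all. Each was searched on both strands, the motifs do not contain each other, and a match says nothing of whether a factor binds. The 150 bases before the start site are shown for 4 members with an E-box there, in capitals, because the calls of their transcripts differed: Imp4, Utp18 and Utp14b were called lower in MII and Nop2 was not called. They lie at chr1:34439679-34439828 (plus strand), chr11:93885767-93885916 (minus strand), chr1:78658290-78658439 (plus strand) and chr6:125131733-125131882 (plus strand), in that order.
Imp4: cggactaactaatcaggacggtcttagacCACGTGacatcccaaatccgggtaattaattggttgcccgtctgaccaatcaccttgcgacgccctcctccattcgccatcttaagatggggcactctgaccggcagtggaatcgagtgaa
Utp18: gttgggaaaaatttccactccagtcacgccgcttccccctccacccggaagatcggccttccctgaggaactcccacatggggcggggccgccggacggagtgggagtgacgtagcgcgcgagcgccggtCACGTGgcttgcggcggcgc
Utp14b: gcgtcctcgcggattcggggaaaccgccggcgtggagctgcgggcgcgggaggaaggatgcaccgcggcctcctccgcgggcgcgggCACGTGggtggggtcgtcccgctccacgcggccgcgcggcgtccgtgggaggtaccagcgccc
Nop2: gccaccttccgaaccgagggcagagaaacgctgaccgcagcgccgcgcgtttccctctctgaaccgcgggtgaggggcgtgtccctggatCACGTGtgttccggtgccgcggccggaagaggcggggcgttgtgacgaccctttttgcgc
The E-box begins 121 bases before the start in Imp4, 20 in Utp18, 63 in Utp14b and 60 in Nop2. Nop2 lay below the array medians at both stages, where a change is hard to see. The call of Utp14b did not hold under equal array medians or quantile normalization, as given below. Of the 12 genes with an E-box in a window 9 were called lower, 3 were not called, and their median difference was -1.11. Of the 29 without it 19 were called lower and 3 higher, with a median of -0.97. Of all genes 37.8% were called lower and 10.5% higher, with a median of -0.20.

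Transcripts of ribosome biogenesis factors were mostly lower in MII oocytes. With each gene represented by its brightest probe set, 32 of 51 genes fell and 3 rose (limma, Benjamini-Hochberg adjusted p under 0.05 over all probe sets), where 37.8% of all genes fell and 10.5% rose. The members' median log2 difference, MII minus GV, was -0.97, against -0.20 over all genes. Falls of at least 2-fold were called for 25 genes and of at least 4-fold for 13, and no rise reached 2-fold. Over single probe sets, 53 of 89 were called lower and 5 higher, against 34.1% and 10.9% of all probe sets. The 3 MII values all lay below the 3 GV values for 34 genes and all above for 3, where the shares over all genes were 43.3% and 14.6%.

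These counts depend on the scale between arrays. The deposited values appear to have had a common scale before the probe sets were chosen. Equal medians and quantile normalization here would then act a second time, on a subset. With array medians made equal, which moved the median difference of all probe sets by 0.62, 25 members fell and 15 rose, beside 22.5% and 52.2% of all genes. Quantile normalization, a shift of 0.34, gave 25 falls and 11 rises beside 24.5% and 34.5%. Equal hybridization controls, a shift of -0.40, gave 32 falls and 0 rises beside 36.7% and 0.437%. Without GV replicate 1, a comparison added after the control values were seen, that shift was -0.70, with 42 falls and 0 rises beside 74.4% and 0.639%. Equal poly-A controls, a shift of -0.87, gave 48 falls and 0 rises beside 86.5% and 0.271%. In all 5 scalings, and in the one without GV replicate 1, the members' share of falls was above that of all genes. Their median difference was also below that of all genes, but equal medians or controls shift whole arrays and cannot change this gap. Quantile normalization can, and gave a median of -0.30 for the members against 0.17 for all genes.

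**Figure D1:**
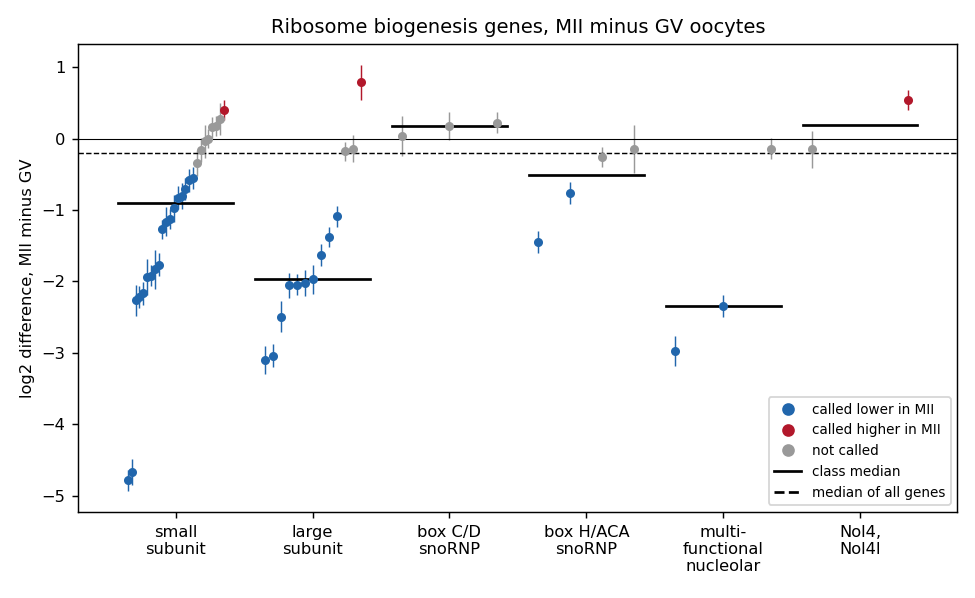
Log2 difference (MII minus GV) of each of the 51 genes by its brightest probe set, with bars of 1 SE, grouped by role; lines mark class medians and the dashed line the median of all genes, -0.20. Small and large subunit factors lie mostly below 0, down to -4.78, and the 3 box C/D proteins between 0.04 and 0.22.

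Small subunit factors fell in 18 of 26 genes and rose in 1, with a median of -0.90. Large subunit factors fell in 10 of 13 and rose in 1, with a median of -1.97. Taking each gene against its own GV mean, the median over the small subunit genes was -1.0, -0.88 and -0.85 in the 3 MII samples and -0.06, 0.10 and -0.11 in the 3 GV samples. For the large subunit genes it was -2.09, -1.73 and -1.91 in MII samples, against -0.04, 0.13 and -0.06 in GV samples. The same median over all genes was -0.23, -0.21 and -0.20 in MII samples and -0.00, 0.04 and -0.05 in GV samples. As means of the samples these were -0.91 ± 0.08 in MII and -0.02 ± 0.11 in GV for small subunit genes, and -1.91 ± 0.18 in MII and 0.01 ± 0.10 in GV for large subunit genes (SD, n = 3 each). In both classes the stages were apart by far more than the spread between samples. Over all genes they were apart as well, at -0.22 ± 0.02 in MII and -0.00 ± 0.04 in GV. Taking values against the GV mean places the GV samples near 0 in any class. The large subunit median lay lower than the small subunit median in each MII sample. With probe sets of a gene averaged, the medians were -0.85 for small and -1.32 for large subunit genes. The steepest falls belonged to the small subunit class all the same, and in factors outside the members the order of the medians was the other way, as given further on; no test was made between classes.

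**Figure D2:**
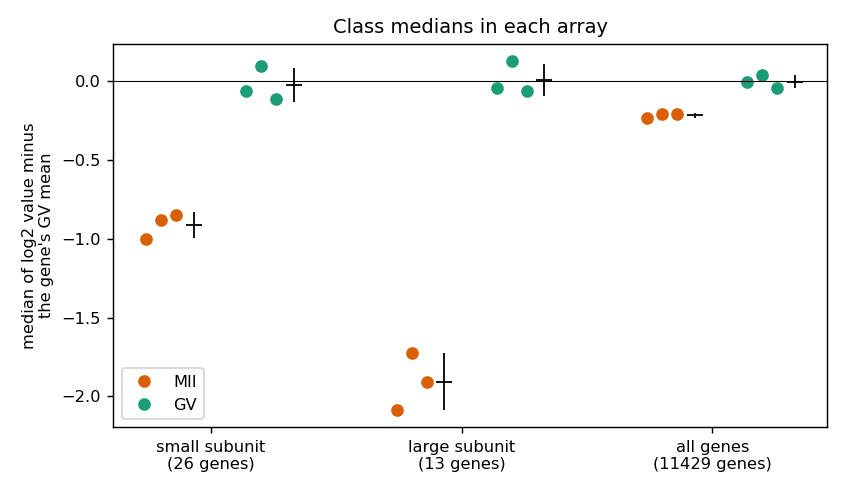
Median over the genes of a class of the log2 value minus the gene's own GV mean, in each array, with the mean and SD of the 3 arrays per stage beside the points. MII arrays lie at -0.85 to -1.0 for small subunit factors, -1.73 to -2.09 for large subunit factors and -0.20 to -0.23 for all genes.

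Among small subunit factors Utp4, a processome protein of the subcomplex that also aids rRNA transcription, had the steepest fall. It read 6.31, 6.18 and 6.33 in MII and 10.95, 11.27 and 10.94 in GV samples. The difference was -4.78 ± 0.15 (SE; limma, adjusted p = 1.7e-08), with the stages wide apart. Utp11, another processome protein, read 3.61, 3.47 and 3.41 in MII and 7.79, 8.42 and 8.30 in GV samples, a difference of -4.67 ± 0.18 (limma, adjusted p = 3.6e-08). All its MII values were below the array medians, where little of the signal may be specific, so the size of the fall is uncertain. Its other probe set was at -2.61. Rrp12, which accompanies the pre-40S particle to the cytoplasm, read 3.81, 2.94 and 3.78 in MII and 5.76, 5.77 and 5.80 in GV samples, at -2.27 ± 0.22. Here too the MII values were below the array medians and even the GV values were.

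The Mpp10 complex joins the processome early and contains Imp3 and Imp4. Imp4 read 7.07, 7.15 and 7.34 in MII and 8.86, 9.24 and 8.75 in GV samples, at -1.77 ± 0.16 (limma, adjusted p = 1e-05). Of its other probe sets 1 was at -0.99 and called, and 1 at -0.07 and not called. Imp3 read 5.72, 6.15 and 6.18 in MII and 7.19, 7.13 and 6.65 in GV samples, at -0.97 ± 0.19, with no overlap. Its call did not hold under equal array medians (-0.35) or quantile normalization (-0.30). Nop14, which holds early processome parts together, was at -1.83 and Nop9, an RNA-binding protein of the same particle, at -1.92, both called lower.

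Utp14a and Utp14b are a gene and its retroposed copy, the copy being known for its need in spermatogenesis of the mouse. Utp14a read 7.41, 7.69 and 7.67 in MII and 8.84, 8.84 and 8.91 in GV samples, at -1.27 ± 0.14 (limma, adjusted p = 3.1e-05), while a second probe set was at -0.09 and not called. Utp14b read 6.20, 5.90 and 6.07 in MII and 6.65, 6.99 and 6.66 in GV samples, at -0.71 ± 0.15. Both copies were lower, but the call of Utp14b did not hold under equal array medians (-0.08) or quantile normalization (-0.04). The copies are alike in sequence, and whether their probe sets share signal was not tested.

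Ltv1, Tsr1 and Nob1, factors of the late, cytoplasmic steps, were called lower as well. Ltv1, which is released before the 40S subunit can function, read 5.83, 4.70 and 5.34 in MII and 7.32, 7.31 and 7.05 in GV samples, at -1.94 ± 0.25 (limma, adjusted p = 0.00011). Tsr1, a GTPase-like protein that keeps the pre-40S particle inactive, read 7.08, 7.42 and 7.14 in MII and 8.82, 8.27 and 8.04 in GV samples, at -1.17 ± 0.20, and its dimmer probe set was at -0.29 and not called. Nob1, the endonuclease that makes the 3′ end of 18S rRNA, read 5.65, 5.26 and 5.34 in MII and 5.93, 6.23 and 5.85 in GV samples. Its difference of -0.58 ± 0.16 (limma, adjusted p = 0.015) was called, but not without MII replicate 2 (-0.51), without GV replicate 2 (-0.47) or with no moderation of the variance, and it was 0.04 under equal array medians and 0.03 under quantile normalization. Utp25 was at -2.17, Utp18 at -1.13, Utp3 at -0.83, Rrp7a at -0.80 and Rrp36 at -0.55, each a processome protein and called lower. Under equal array medians and quantile normalization the calls of Utp3 (-0.20 and -0.18) and Rrp7a (-0.18 and -0.13) were lost, and Rrp36 was at 0.07 and 0.12. Rrp36 also lost its call without GV replicate 2 (-0.41).

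**Figure D3:**
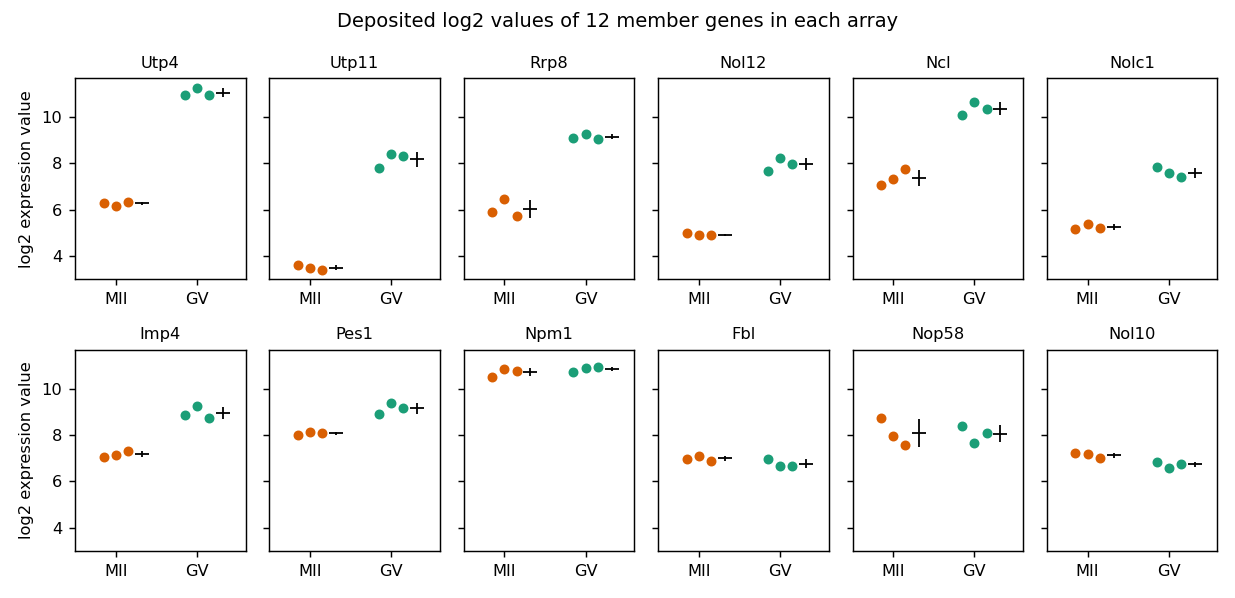
Deposited log2 values of 12 genes (brightest probe set) in the 3 MII and 3 GV arrays, with the mean and SD beside the points. The stages are apart for Utp4, Utp11, Rrp8, Nol12, Ncl, Nolc1, Imp4, Pes1 and, upward, Nol10, and overlap for Npm1, Fbl and Nop58.

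Bms1, the GTPase of the processome, gave opposite answers. Its brightest probe set, an _s_at design that can match more than 1 transcript, read 11.04, 11.09 and 10.67 in MII and 13.30, 13.10 and 13.05 in GV samples, and fell by 2.22. The GV values were near the top of the range, where a difference may be compressed. Its other probe set read 11.51, 10.79 and 10.99 in MII and 10.14, 10.14 and 10.26 in GV samples, a rise of 0.92 ± 0.19 (limma, adjusted p = 0.0026). Which of them follows the Bms1 transcript was not tested. The sole small subunit gene called higher by its brightest probe set was Nol10, the relative of a yeast processome protein, with 7.21, 7.18 and 7.02 in MII and 6.85, 6.60 and 6.75 in GV samples. That rise of 0.40 ± 0.14 (limma, adjusted p = 0.038) was not called without MII replicate 1 (0.36), MII replicate 2 (0.38), GV replicate 2 (0.33) or GV replicate 3 (0.41), nor with the replicate number as a block (0.40), and was -0.0033 with equal hybridization controls.

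The other 7 small subunit genes were not called by their brightest probe set. Utp20, a very large scaffold protein, was at 0.16 (95% interval -0.17 to 0.49), Nol6 at 0.18 (-0.14 to 0.49) and Utp15 at 0.00 (-0.28 to 0.29). Utp6 was at -0.04 (-0.55 to 0.48) and Nol7 at 0.28 (-0.22 to 0.78). However, other probe sets of Utp15 (-1.73), Utp6 (-2.29 and -1.47) and Nol7 (-2.09) were called lower. Nol11 (-0.34) and Utp23 (-0.16) lay below the array medians at both stages, where a change is hard to see. With equal array medians, where 52.2% of all genes were called higher, 6 of the 7 were too, at 0.47 (Utp23) to 0.90 (Nol7). Nol11 was at 0.28 there and not called.

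Among large subunit factors Rrp8, which methylates 28S rRNA, fell most. It read 5.92, 6.48 and 5.74 in MII and 9.11, 9.27 and 9.06 in GV samples, a difference of -3.10 ± 0.19 (limma, adjusted p = 6.2e-07). Nol12, known from its yeast relative as an exonuclease of pre-rRNA, read 4.98, 4.89 and 4.91 in MII and 7.69, 8.23 and 7.98 in GV samples, at -3.04 ± 0.16 (limma, adjusted p = 2.1e-07). Rrp1 read 4.36, 4.48 and 3.89 in MII and 7.16, 6.60 and 6.43 in GV samples, at -2.49 ± 0.22. Both of these ended below the array medians of all MII samples, so the size of their falls is uncertain. Rrp1b, the relative of Rrp1, was at -0.17 (-0.47 to 0.12) by its brightest probe set, with 7.0, 6.92 and 6.82 in MII and 7.16, 7.01 and 7.10 in GV samples, while its other probe sets were at -2.70 and -2.68 and called lower.

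The PeBoW complex, made of Pes1, Bop1 and Wdr12, was lower in all its parts. Pes1 read 8.0, 8.13 and 8.09 in MII and 8.92, 9.38 and 9.18 in GV samples, at -1.09 ± 0.15 (limma, adjusted p = 0.00021). Bop1, with a single probe set, read 4.04, 4.09 and 4.20 in MII and 6.15, 6.47 and 5.78 in GV samples, at -2.02 ± 0.18. Wdr12 read 4.53, 4.76 and 4.85 in MII and 6.79, 6.85 and 6.65 in GV samples, at -2.04 ± 0.14. Bop1 and Wdr12 ended below the MII array medians, and all 3 genes kept their fall in the 5 scalings. The dimmer probe sets of Pes1 (-0.62) and Wdr12 (-0.60) were called lower as well.

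Of the other large subunit genes Nol9, a kinase needed to process the spacer between 5.8S and 28S rRNA, was at -2.05, Rrp15 at -1.97, Nop53 at -1.63 and Ebna1bp2 at -1.38, all called lower. The 3 dimmer probe sets of Nol9, from -0.02 to 0.39, and that of Nop53, at -0.02, were not called, and the Nop53 probe set called lower was an _s_at design. That Nop53 probe set ended below the array medians of all MII samples, so the size of its fall is uncertain. Nop2, an rRNA methyltransferase, was at -0.14 and below the array medians at both stages. Nol8 went both ways: the brightest probe set read 9.02, 8.42 and 8.23 in MII and 7.76, 7.40 and 8.15 in GV samples, a rise of 0.79 ± 0.24 (limma, adjusted p = 0.022), and its other probe sets were at -0.58 and -0.56 and called lower. The rise was not called without MII replicate 1 (0.56), without GV replicate 2 (0.60), with no moderation or with equal hybridization controls (0.38).

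Core proteins of the box C/D snoRNPs differed little by their brightest probe sets. Fbl (fibrillarin), the methyltransferase, read 6.98, 7.12 and 6.89 in MII and 6.98, 6.67 and 6.67 in GV samples, at 0.22 (95% interval -0.11 to 0.55). Nop58 read 8.72, 7.98 and 7.57 in MII and 8.41, 7.67 and 8.08 in GV samples, at 0.04 (-0.60 to 0.67). Nop56, the partner of Nop58, read 7.51, 7.54 and 7.07 in MII and 7.54, 6.94 and 7.11 in GV samples, at 0.18 (-0.26 to 0.61). Its other probe set, an _s_at design, read 5.27, 5.70 and 4.81 in MII and 8.91, 8.70 and 8.64 in GV samples, at -3.49 ± 0.21 (limma, adjusted p = 5.3e-07). The stages overlapped for all 3 brightest probe sets and were far apart for that one. With equal array medians Fbl (0.85) and Nop56 (0.80) were called higher, and equal poly-A controls put all 3 genes lower (-0.65 to -0.84).

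Box H/ACA snoRNPs hold 4 core proteins, of which 2 fell (50%), beside 37.8% of all genes. With so few genes these shares cannot be told apart. Nhp2 read 7.86, 7.86 and 7.52 in MII and 9.24, 9.30 and 9.03 in GV samples, at -1.45 ± 0.15 (limma, adjusted p = 2.6e-05), and its other probe set was at -0.78 and called. Gar1 read 8.52, 8.78 and 8.40 in MII and 9.29, 9.48 and 9.22 in GV samples, at -0.76 ± 0.15, a call that did not hold under equal array medians (-0.14) or quantile normalization (-0.29). Nop10 read 8.87, 9.08 and 9.13 in MII and 9.32, 9.34 and 9.18 in GV samples, at -0.25 (95% interval -0.56 to 0.05), without overlap but not called. Dkc1 (dyskerin), the pseudouridine synthase, read 10.07, 9.88 and 10.95 in MII and 9.72, 10.83 and 10.80 in GV samples by its brightest probe set, at -0.15 (-0.91 to 0.61). Its probe sets disagreed more than those of any other member: a second was at 0.65 and not called, and another, an _s_at design, read 3.48, 3.41 and 3.24 in MII and 8.89, 8.06 and 8.61 in GV samples, at -5.14 ± 0.20 (limma, adjusted p = 4.2e-08). All MII values of that probe set were below the array medians, so the size of its fall is uncertain.

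Nucleolar proteins with several tasks parted. Ncl (nucleolin), which binds nascent pre-rRNA, read 7.06, 7.34 and 7.75 in MII and 10.10, 10.64 and 10.33 in GV samples, at -2.97 ± 0.21 (limma, adjusted p = 1.2e-06), and all 4 of its probe sets were called lower, at -1.05 to -2.97. Nolc1, a chaperone of snoRNPs, read 5.17, 5.40 and 5.21 in MII and 7.83, 7.57 and 7.40 in GV samples, at -2.34 ± 0.15, with a second probe set called at -1.05 and another not called at 0.33. The MII values of the brightest Nolc1 probe set were below the array medians, so the size of that fall is uncertain. Npm1 (nucleophosmin), a histone and ribosome chaperone, read 10.51, 10.84 and 10.78 in MII and 10.74, 10.89 and 10.93 in GV samples, at -0.14 (95% interval -0.47 to 0.18). Its other probe set was at 0.30 and not called. The stages thus overlapped for the brightest probe set of Npm1 and were apart for Ncl and Nolc1. Equal array medians put Npm1 at 0.48, a rise, and equal poly-A controls at -1.01, a fall.

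Nol4l read 8.26, 8.33 and 8.42 in MII and 7.74, 7.93 and 7.72 in GV samples, a rise of 0.54 ± 0.13 (limma, adjusted p = 0.0082), with a second probe set called higher at 0.82 and another not called at 0.26; the rise was 0.14 and not called with equal hybridization controls, -0.18 there once GV replicate 1 was left out, and -0.33 under equal poly-A controls. Nol4 was at -0.15 and not called. Without both, the 49 remaining genes held 32 falls and 2 rises, with a median of -1.09.

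Several probe sets existed for 27 member genes. Their log2 differences spanned over 1 in 17 of the 27 (63.0%), against 37.5% of 4739 such genes on the array, and were called in opposite directions in Bms1 and Nol8, 7.41% against 10.8%. Over all probe sets 39 of the 51 genes had 1 or more called lower, 4 had 1 or more called higher and 10 had none called. Several probe sets give a gene more chances of a call, and this count was not made over all genes. Of single probe sets 59.6% of the members' and 34.1% of all were called lower, and 5.62% and 10.9% higher. In Dkc1, Nop56, Nol7, Rrp1b, Utp15 and Utp6 the brightest probe set was not called and another was called lower. The annotation ties each probe set to the gene and not to a transcript form, so which form each measures was not tested. Probe sets with names ending in _s_at, _x_at or _a_at, which can match more than 1 transcript, numbered 23, of which 13 were called lower and 0 higher, beside 40 lower and 5 higher of the other 66. Apart from those named above, the 23 include the only probe set of Gar1 and the brightest of Nhp2, Tsr1 and Fbl.

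**Figure D4:**
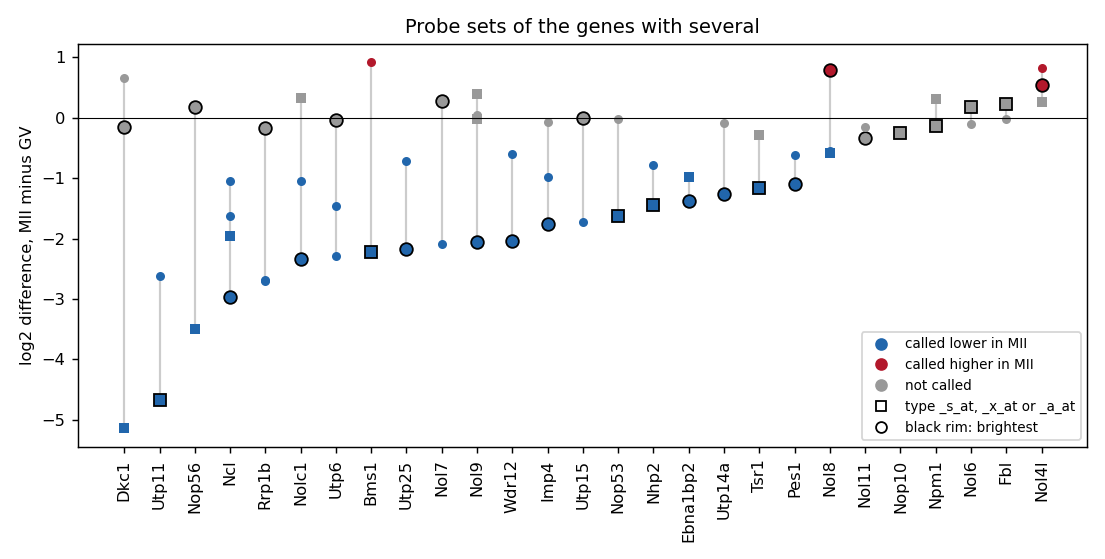
Log2 difference (MII minus GV) of every probe set of the 27 genes with several; squares are types _s_at, _x_at and _a_at, and a black rim marks the brightest. The span is widest in Dkc1, from -5.14 to 0.65, and probe sets were called in both directions in Bms1 and Nol8.

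A p that misses the threshold does not show a stable transcript, so stability was tested against bounds. Within 1.5-fold 0 of the 62 member probe sets bright enough to be tested were called (limma, 2 one-sided tests, Benjamini-Hochberg), as were 0% of all 10823, while 16 of the 62 (25.8%) had an unadjusted p under 0.05, beside 28.7% of all. With equal array medians 8 of the 62 had one (12.9%), beside 14.4% of all. Within 2-fold 25 of the 62 were called, against 53.8% of all. Both probe sets of Fbl, Nop10, Npm1 and Nol6 were among them, as were the only ones of Nop58 and Utp20. The brightest probe sets of Nol10, Rrp36 and Nol4l were called changed and also within 2-fold on the deposited scale, as were the 2 lower probe sets of Nol8, while the rise of 0.79 in Nol8 and that of 0.82 in Nol4l were not called within 2-fold. Nol10, Nol4l and Nol8 lay beyond 2-fold with equal array medians (1.02, 1.16 and 1.41) and after quantile normalization (1.05, 1.12 and 1.34).

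Biogenesis genes outside the members mostly fell as well. Of 31 other small subunit factors 24 fell and 1 rose, with a median of -1.46, and of 46 other large subunit factors 31 fell and 1 rose, with a median of -1.0, so the large subunit median was here the higher. Emg1 and Heatr1, of the small subunit, were both at -4.18, and Rpf2 and Gnl2, of the large subunit, at -5.30 and -4.07. Each of these genes ended below the medians of all MII arrays, so the size of their falls is uncertain. The rises were Trmt112 at 1.08, a partner of several methyltransferases, and Nsun5 at 0.97, a 28S rRNA methyltransferase. Nsun5 lay below the array medians at both stages. Of 13 RNA polymerase I genes 11 fell and 0 rose, the same 11 whose stages did not overlap, with a median of -1.0, Polr1d at -2.56 and the factor gene Ubtf at -0.89. Among 9 snoRNP assembly genes 4 fell (44.4%), near the 37.8% of all genes. The steepest fall was in Znhit6 at -3.97, and Naf1, which brings H/ACA proteins together, rose by 0.57. Altogether 70 of these 99 genes fell and 3 rose, beside 37.8% and 10.5% of all genes.

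**Figure D5:**
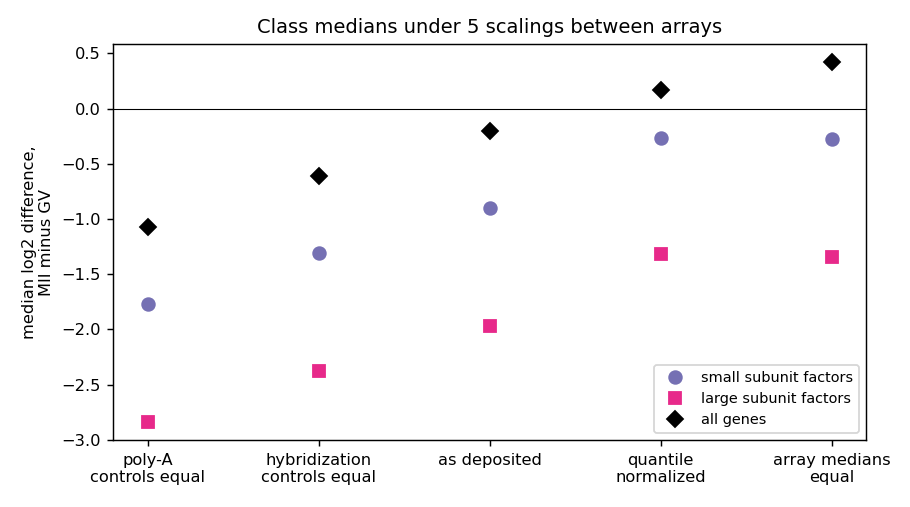
Median log2 difference (MII minus GV) of small subunit factors, large subunit factors and all genes under 5 scalings between arrays. The class medians stay below 0 throughout, from -1.77 to -0.27 for small and -2.84 to -1.32 for large subunit factors, while that of all genes runs from -1.07 to 0.42.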

How the data were processed

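The deposited table holds log2 values per probe set for 6 arrays, 3 of MII and 3 of GV oocytes; the submitters' processing notes name RMA and affy without settings, and the rule that kept 21702 probe sets is unstated. All 6 arrays had the same lowest value, 1.85, and the same highest, 13.3. Identical values recurred between arrays too, such as 8.69687 in GV replicate 2 (Dkc1), GV replicate 3 (Ncl) and MII replicate 3 (Dcaf13). This is what quantile normalization over a fuller set of probe sets leaves, although the notes do not state that step. The scalings tried here would then be a second step on a subset. No build was needed. Per the labels' protocols, amplification took 2 rounds, primed with MultiStart primers. The design text calls the samples biological replicates.

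From the deposited log2 values, 56 control features were set aside and 21646 probe sets tested, without a filter. The test was limma 3.58.1 under R 4.3.3, a fit of stage alone by lmFit with eBayes, its 2-sided p-values adjusted after Benjamini-Hochberg over all of them and called under 0.05. Of a gene's 1-symbol probe sets, that of highest mean over the 6 arrays stood for it; 19078 probe sets had 1 symbol, 550 several and 2018 none. Stability used 2 one-sided tests against 1.5-fold bounds over the 10823 probe sets above the median mean. The fits were tested on simulated data. All members are named; values in each array are given, per class, for up to 3 largest called falls and rises, for genes called both ways and for 20 genes fixed by name (Fbl, Npm1 and other core factors). Members, classes and lists were chosen with earlier results of these data known, so no list was tested. Replicates 2 and 3 are numbered in the labels; same-numbered samples deviated together at correlations of 0.03 to 0.09, so the numbers were not taken as pairs. Alternatives changed the scaling, filter, moderation, probe set, replicate block and replicates.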

Additional observations from a re-analysis of the deposited data

How the results depend on the processing

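The number of member genes called lower stayed within 1.5 times of 32 under all alternatives run (25 to 48). Under these the share of all genes called lower ran from 22.5% to 86.5%. The number of member probe sets called lower also stayed within that ratio, except with equal poly-A controls (82). A count of 32 among 51 genes can rise little by this ratio, so the steadiness of falls and rises cannot be compared by it. Higher calls and medians moved with the scale. Of all probe sets and all genes 55.5% and 52.2% were called higher with array medians made equal, and 34.8% and 34.5% after quantile normalization. With array medians made equal, 31 of 89 member probe sets, 15 of 51 member genes, 7 small and 3 large subunit genes were higher. The medians of all member, small and large subunit genes were -0.35, -0.28 and -1.35. After quantile normalization these were 24, 11, 6 and 2, and -0.30, -0.27 and -1.32. Equal hybridization or poly-A controls left 0 higher in each, with medians of -1.38, -1.31 and -2.37, and -1.85, -1.77 and -2.84. Hybridization controls made equal without GV replicate 1, a setting chosen after seeing the data, also left 0 higher, with medians of -1.63, -1.60 and -2.71. Testing only probe sets above the array median gave -1.09 and -1.05 for all and small subunit genes. Averaging a gene's probe sets gave -0.87 and, for the large subunit, -1.32 with 0 higher; without types _s_at, _x_at and _a_at the medians were -0.74, -0.75 and -1.67, with 2 small subunit genes higher. No large subunit gene was higher without moderation (0), and no small subunit gene with the replicate block (0), where the paired fit changed no other call of a gene. Leaving out 1 sample gave 3 to 6 higher probe sets, 1 to 4 genes, 0 to 2 small and 0 to 1 large subunit genes, and medians of -1.06 to -0.83, -0.99 to -0.80 and -2.01 to -1.80. Bounds of 2-fold called 25 probe sets stable.

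Genes changed sign mostly where the difference was near 0. With equal array medians Dkc1 was at 0.48, Nob1 0.039, Nol11 0.28, Nol4 0.47, Nop10 0.37, Nop2 0.48, Npm1 0.48, Rrp1b 0.45, Rrp36 0.072, Utp23 0.47 and Utp6 0.59, and after quantile normalization Dkc1 0.17, Nob1 0.035, Nol4 0.50, Nop10 0.19, Nop2 0.34, Npm1 0.16, Rrp1b 0.49, Rrp36 0.12, Utp23 0.13 and Utp6 0.63. With equal hybridization controls Fbl was at -0.18, Nol10 -0.0033, Nol6 -0.23, Nol7 -0.12, Nop56 -0.23, Nop58 -0.37, Utp15 -0.40 and Utp20 -0.24; the same setting without GV replicate 1 gave Fbl -0.37, Nol10 -0.23, Nol4l -0.18, Nol6 -0.45, Nol7 -0.16, Nop56 -0.35, Nop58 -0.48, Utp15 -0.66 and Utp20 -0.55, and equal poly-A controls put Fbl at -0.65, Nol10 -0.47, Nol4l -0.33, Nol6 -0.70, Nol7 -0.59, Nol8 -0.085, Nop56 -0.70, Nop58 -0.84, Utp15 -0.87 and Utp20 -0.71. Averaged probe sets put Nol7 at -0.91, Nol8 at -0.12, Nop56 at -1.66, Npm1 at 0.080 and Utp15 at -0.87; without the 3 types Bms1 was at 0.92 and called higher, Fbl at -0.018 and Nol6 at -0.10. Without 1 sample Nop58 ran from -0.28 to 0.29, Utp15 from -0.027 to 0.030, Utp6 from -0.27 to 0.18, Dkc1 from -0.51 to 0.060, Nol4 from -0.34 to 0.11 and Nop2 from -0.23 to 0.038. The cause was not tested. No measure of background was used here, so dim probe sets limit what can be seen.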
